A study of Mus musculus with 2 samples.

Results

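The genes described here serve fatty acid uptake into the enterocyte, the absorptive cell of the gut lining, and triglyceride synthesis, storage and breakdown. They were picked by name for fatty acid uptake, fatty acid binding, acylglycerol synthesis, lipid droplets and lipolysis. The choice was made with earlier results of these data known. All 10 genes, of 22756 gene rows, were present in both libraries: Cd36, Scarb1, Slc27a4, Fabp1, Fabp2, Mogat2, Dgat1, Dgat2, Plin2 and Pnpla2. The study compared ileum from mice that had eaten with ileum from mice deprived of food for 48 h, asking how feeding state bears on mRNA translation. Both groups were wild type C57BL/6 animals at postnatal day 21, near weaning, and differed by label in feeding alone. Each group is 1 library of ribosome footprints, the mRNA pieces that ribosomes protect from nuclease, and how many mice stand behind a library is not stated in the labels. A gene's footprint count depends on both the amount of its mRNA and the ribosome load on it, and no mRNA library was analysed here to separate them.

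After a fatty meal, fatty acids and monoacylglycerol enter the enterocyte across the brush border, and binding proteins carry the fatty acids through the cytosol. Acyl-CoA synthetases activate them, and acyltransferases of the endoplasmic reticulum join them to monoacylglycerol and then to diacylglycerol, which gives triglyceride. The triglyceride leaves the cell in chylomicrons or waits in cytosolic lipid droplets, from which lipases release it again.

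Gene counts summed to 5558620 in the fed library and to 5434252 in the fasted one. Reads that overlapped no counted feature made up 13.4% and 21.0% of the reads in the respective files. Ratios are fasted over fed, on counts scaled by TMM, a method that sets the typical gene's ratio near 1. Levels are TMM-scaled CPM, counts brought to a common library size. Brackets give the log2 ratio and its 95% exact interval, which covers counting error only. A gene was called higher or lower with at least 30 counts over both libraries, a difference of 1.5-fold or more and an interval that left out a ratio of 1. With 1 library per group there is no replicate check and no p-value, so every difference is one between these 2 libraries. Plain CPM, counts divided by the library's gene total, moved every log2 ratio by -0.32 against TMM and is given wherever it changes a call or a sign.

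Most of the 10 genes were higher in the fasted library. With TMM, 7 were called higher, 0 lower and 3 neither, where 17.3% of the 11333 measured genes were called higher and another 17.3% lower. With plain CPM, 6 were called higher, 1 lower and 3 neither, against 8.86% higher and 31.2% lower among all measured genes. The median log2 ratio of the 10 genes was 1.04, against 0.0028 over all measured genes (0.72 against -0.32 with plain CPM). With TMM, Fabp1, Pnpla2, Fabp2 and Cd36 differed by at least 3-fold, and Dgat1, Dgat2 and Scarb1 by less. Slc27a4, Mogat2 and Plin2 did not reach 1.5-fold on that scaling. Only Fabp1 differed by at least 3-fold with plain CPM (log2 ratio 2.54, Pnpla2 next at 1.56). Together the 10 genes took 0.597% of all gene counts in the fed library (95% exact binomial interval 0.591% to 0.604%) and 1.33% in the fasted library (1.32% to 1.34%). Fabp2 alone made up 70.0% of those counts in the fed library and 80.2% in the fasted one. Without Fabp2 the other 9 genes took 0.179% (0.176% to 0.183%) and 0.263% (0.258% to 0.267%).

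**Figure D1:**
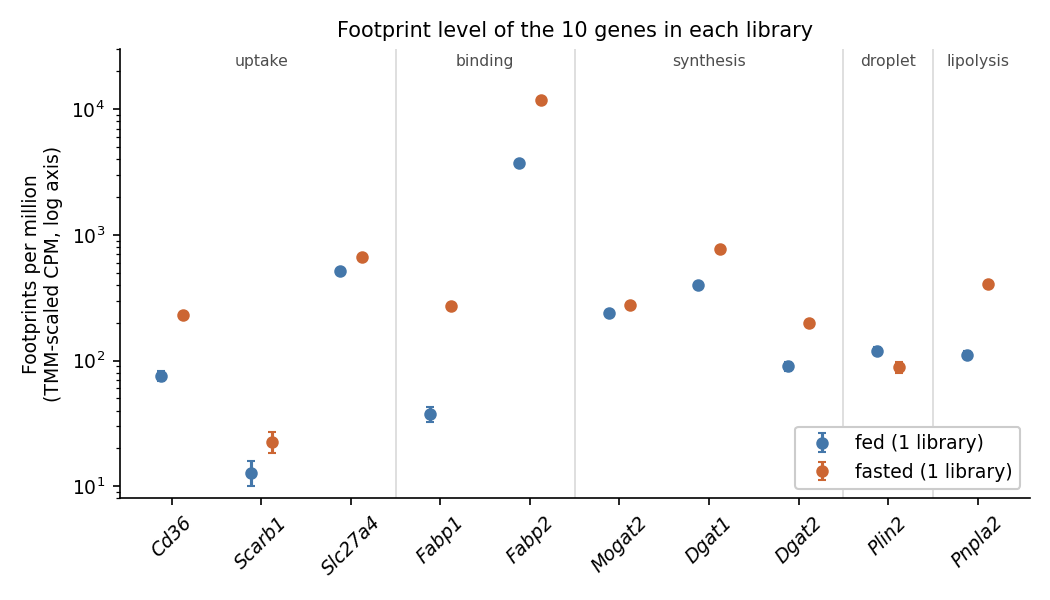
Footprint level (TMM-scaled CPM, log axis) of the 10 genes, grouped by role, in the fed and the fasted library. Points are single libraries and bars are 95% exact Poisson intervals, which cover counting error only; Fabp2 is far above the others at 3740 and 11934, and Plin2 is the only gene of the 10 with its fasted point below its fed point on this scale.

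Among the uptake genes Cd36, Scarb1 and Slc27a4, Cd36 had the highest ratio. Cd36 (ENSMUSG00000002944, mm10 chromosome 5, 17781690 to 17888801, minus strand) is a class B scavenger receptor that binds long-chain fatty acids. It had 472 counts in the fed library and 1120 in the fasted one, or 75.9 and 230.5 scaled CPM, and was 3.04-fold higher in the fasted library (1.60, 1.45 to 1.76). Scarb1 (ENSMUSG00000037936, chromosome 5, 125277087 to 125341094, minus strand), the related receptor that binds high-density lipoprotein, was the least abundant of the 10. Scarb1 had 79 and 109 counts, or 12.7 and 22.4 scaled CPM, a 1.77-fold higher level in the fasted library (0.82, 0.39 to 1.26). With plain CPM it missed the 1.5-fold mark (0.49, 0.066 to 0.93). Slc27a4 (ENSMUSG00000059316, chromosome 2, 29802634 to 29817522, plus strand), also called FATP4, is an acyl-CoA synthetase that promotes fatty acid uptake. Slc27a4 had 3181 and 3245 counts, or 512 and 668 scaled CPM, a ratio of 1.31 that did not reach 1.5-fold (0.38, 0.31 to 0.46). With plain CPM the Slc27a4 interval included no difference (0.061, -0.0096 to 0.13). Of these 3 genes Cd36 was called higher under both scalings, Scarb1 with TMM but not plain CPM, and Slc27a4 under neither.

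Cd36 is also made by endothelial cells, macrophages and adipocytes, so their markers are given beside it. Of 6 endothelial markers 2 were called higher and 0 lower (1 higher with plain CPM), and their summed level was 242 scaled CPM when fed and 360 when fasted. Of 7 macrophage markers 0 were called in either direction (1 lower with plain CPM), with summed levels of 414 and 491. Of 5 measured adipocyte markers 1 was called higher, the droplet gene Cidec, and 3 lower, with summed levels of 130 and 212. Cidec gave 40.1 and 130.9 scaled CPM of these sums, and Cfd, which was not called, 50.7 and 66.1. Adiponectin, Adipoq, had 138 and 58 counts (-0.89, -1.36 to -0.44), and Lep, leptin, had 2 and 0. The part of these cell types in the Cd36 value was not tested.

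The fatty acid binding proteins held both the largest ratio and the largest counts. Fabp1 (ENSMUSG00000054422, chromosome 6, 71199827 to 71205023, plus strand), the liver-type binding protein that the intestine also makes, had 232 counts in the fed library and 1318 in the fasted one. Its level was 37.3 and 271 scaled CPM, 7.27-fold higher in the fasted library (2.86, 2.66 to 3.07), at rank 63 of the 11333 measured genes. Fabp2 (ENSMUSG00000023057, chromosome 3, 122895072 to 122899506, plus strand), the intestinal-type protein, had 23250 and 57989 counts. Its level went from 3740 to 11934 scaled CPM, 3.19-fold higher in the fasted library (1.67, 1.65 to 1.70). Fabp1 therefore stayed the minor form in both libraries. Per kilobase of coding sequence Fabp2 was 96.4 times the level of Fabp1 in the fed library and 42.3 times in the fasted library. The count ratio of Fabp1 over Fabp2, which does not depend on library scaling, was 2.28 times as high in the fasted library (95% exact conditional interval 1.98 to 2.63). Fabp6, the related ileal protein that binds bile acids and not chiefly fatty acids, is a marker of the ileum and had 28873 and 16615 counts (-0.44, -0.47 to -0.41; called lower with plain CPM at -0.76).

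**Figure D2:**
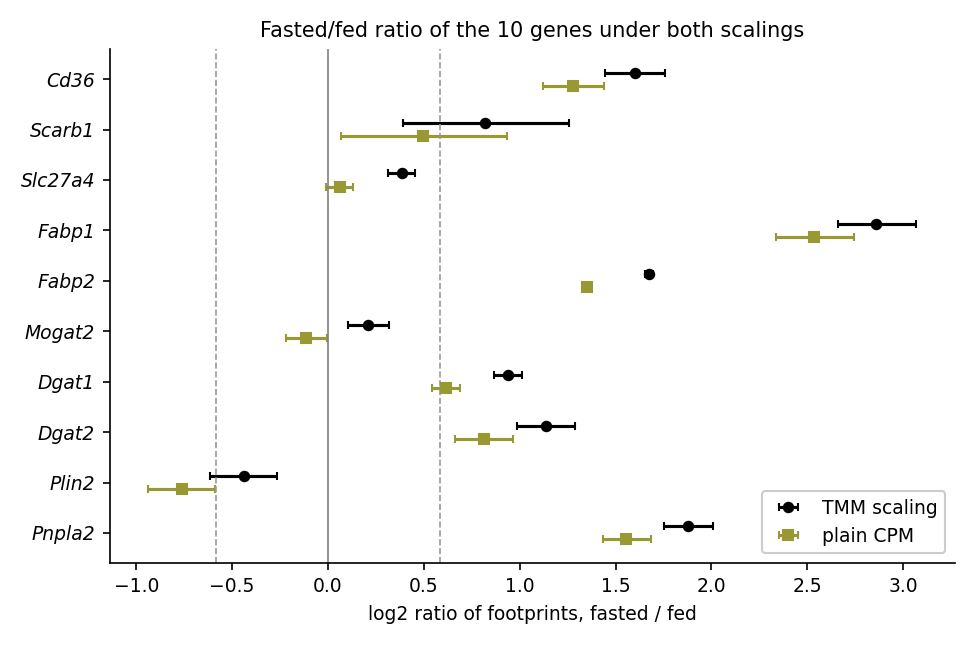
Fasted/fed log2 ratio of footprints for each of the 10 genes with TMM scaling (circles) and with plain CPM (squares), 1 library per condition. Bars are 95% exact intervals (counting error only), the solid line marks no difference and dashed lines mark 1.5-fold; Fabp1 is farthest right at 2.86 with TMM, while Mogat2 changes sign between the scalings.

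Promoter sequences from RefSeq (GRCm38.p6) were matched for 6 of the 10 genes: Cd36, Slc27a4, Fabp1, Fabp2, Plin2 and Pnpla2. The 250 bases before the RefSeq start are shown for the 3 that held a direct repeat of the hexamer AGGTCA, and for Fabp2 as the more abundant relative of Fabp1 without one. The motif searched was AGGTCANAGGTCA with up to 2 mismatches in its fixed letters on either strand, an arrangement that PPAR and HNF4 receptors are known to bind. Capitals mark such a match and, in Fabp1, also the letters TATAAA.
Fabp1 (chr6:71199629-71199878, plus strand): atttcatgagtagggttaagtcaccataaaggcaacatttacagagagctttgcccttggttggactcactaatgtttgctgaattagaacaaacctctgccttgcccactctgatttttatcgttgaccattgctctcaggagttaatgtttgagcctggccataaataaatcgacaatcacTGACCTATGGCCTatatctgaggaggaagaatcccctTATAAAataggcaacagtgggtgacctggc
Fabp2 (chr3:122894822-122895071, plus strand): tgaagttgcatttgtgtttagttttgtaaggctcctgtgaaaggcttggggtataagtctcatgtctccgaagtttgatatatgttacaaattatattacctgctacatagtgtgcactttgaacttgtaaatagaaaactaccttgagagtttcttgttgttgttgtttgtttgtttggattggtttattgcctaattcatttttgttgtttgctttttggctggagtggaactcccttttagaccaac
Cd36 (chr5:17835897-17836146, minus strand): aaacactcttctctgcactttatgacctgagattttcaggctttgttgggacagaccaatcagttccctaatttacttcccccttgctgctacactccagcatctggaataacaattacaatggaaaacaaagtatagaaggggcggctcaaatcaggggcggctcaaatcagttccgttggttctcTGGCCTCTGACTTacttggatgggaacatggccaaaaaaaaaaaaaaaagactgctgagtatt
Plin2 (chr4:86670060-86670309, minus strand): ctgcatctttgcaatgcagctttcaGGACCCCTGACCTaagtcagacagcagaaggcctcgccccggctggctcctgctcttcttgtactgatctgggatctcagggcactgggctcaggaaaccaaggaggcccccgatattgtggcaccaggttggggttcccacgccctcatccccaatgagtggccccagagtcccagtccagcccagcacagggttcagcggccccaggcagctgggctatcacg
Fabp1 held the closest match, with 1 mismatch, read on the opposite strand as AGGCCATAGGTCA and beginning 67 bases before the start. TATAAA followed 30 bases before the start, and the matches did not overlap. The Cd36 match had 2 mismatches (AAGTCAGAGGCCA, opposite strand, 63 bases before the start), and so had the Plin2 match (AGGTCAGGGGTCC, opposite strand, 225 bases before the start). Among all 32851 RefSeq windows of 300 bases, which reach 50 bases past the start, 3.86% held the repeat and 13.6% TATAAA. By the counts above, the genes with a match to the repeat are Fabp1 and Cd36, which were called higher, and Plin2, which was not. Of the genes searched without a match, Fabp2 and Pnpla2 were called higher and Slc27a4 was not. In the same windows of the 6 genes no match was found for the glucocorticoid response element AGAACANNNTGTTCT (up to 2 mismatches, either strand; 1.84% of all windows), for the FOXO letters GTAAACA (3.65%) or for the HNF1 letters GTTAATNATTAAC (up to 2 mismatches; 1.36%). These are letter matches in one window per gene and were not tested for binding. GENCODE vM21 places other starts of Cd36 further upstream, which the window does not cover. It begins Fabp1 at 71199827, within the bases shown and between the repeat and TATAAA. The distances given for Fabp1 therefore hold for the RefSeq start only.

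The acyltransferases of triglyceride synthesis did not move alike. Mogat2 (ENSMUSG00000052396, chromosome 7, 99219084 to 99238619, minus strand), which adds a fatty acid to monoacylglycerol and is the main such enzyme of the small intestine, had 1489 counts in the fed library and 1346 in the fasted one. Its level was 240 and 277 scaled CPM, a ratio of 1.16 (0.21, 0.10 to 0.32), and with plain CPM the sign turned (-0.11, -0.22 to -0.0057). Its direction therefore cannot be told from these libraries. The diacylglycerol acyltransferases, which make the last step to triglyceride, were both called higher under either scaling. Dgat1 (ENSMUSG00000022555, chromosome 15, 76502015 to 76511953, minus strand) had 2505 and 3757 counts, or 403 and 773 scaled CPM, 1.92-fold higher in the fasted library (0.94, 0.87 to 1.01). Dgat2 (ENSMUSG00000030747, chromosome 7, 99153658 to 99182719, minus strand), a relative of Mogat2 and not of Dgat1, had 559 and 961 counts. Its level was 89.9 and 198 scaled CPM, 2.20-fold higher in the fasted library (1.14, 0.99 to 1.29).

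Dgat2 and Mogat2 are neighbours on chromosome 7, with 36364 bases and 0 other protein-coding genes between them. Their count ratio nevertheless differed between the libraries. Mogat2 had 2.66 counts for each count of Dgat2 in the fed library and 1.40 in the fasted library, so that the ratio was 0.526 times as high (0.462 to 0.599). The ratio of Dgat1 to Dgat2 was 4.48 and 3.91, or 0.872 times as high in the fasted library (0.775 to 0.981). That interval came close to no difference, and with a 99% interval it included it (0.747 to 1.02). Per kilobase of coding sequence Dgat1 was at 3.49 times the level of Dgat2 in the fed library and at 3.05 times in the fasted one, or 2.24 and 1.96 times with the median coding length of each gene's transcripts in place of the longest. An exon of Mogat2 overlaps Gm45012 on the opposite strand, and the labels do not say whether counting used strand.

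**Figure D3:**
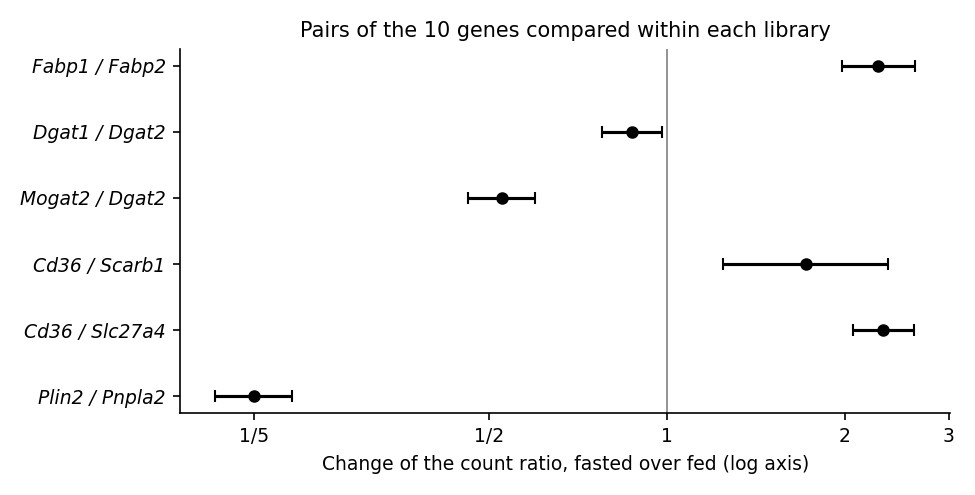
Fasted over fed change in the ratio of 2 genes' counts for 6 pairs of the 10 genes (log axis), with 95% exact conditional intervals that cover counting error only. Values do not depend on library scaling; the Plin2 to Pnpla2 ratio lies farthest from 1, at 0.200, and the Dgat1 to Dgat2 ratio nearest, at 0.872.

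The droplet coat gene and the lipase that acts on droplets went different ways. Plin2 (ENSMUSG00000028494, chromosome 4, 86648386 to 86670060, minus strand), perilipin 2, which coats lipid droplets in most tissues outside fat, had 747 counts in the fed library and 430 in the fasted one. Its level was 120 and 88.5 scaled CPM, a ratio of 0.736 that was not called (-0.44, -0.62 to -0.27). With plain CPM Plin2 was called lower (-0.76, -0.94 to -0.59), and its interval lay below no difference under both scalings. Pnpla2 (ENSMUSG00000025509, chromosome 7, 141455198 to 141460743, plus strand), adipose triglyceride lipase, which takes the first fatty acid from triglyceride, had 690 and 1986 counts. Its level was 111 and 409 scaled CPM, 3.68-fold higher in the fasted library (1.88, 1.75 to 2.01), at rank 211 of the measured genes. The genes had similar counts in the fed library, with 1.08 Plin2 counts for each Pnpla2 count, and 0.217 in the fasted library. The ratio of Plin2 to Pnpla2 was thus 0.200 times as high in the fasted library (0.172 to 0.232). Of the 28-base windows of the Plin2 coding sequence 87.3% were found in no other gene's GENCODE transcripts, the rest being shared with Gm12551, while for each of the other 9 genes it was 100%. Reads that aligned to several places were not assigned, so Plin2 may be counted low in both libraries.

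Per kilobase of coding sequence, the fed library gave the order Fabp2 (9444 scaled CPM per kilobase), Dgat1 (269.7), Slc27a4 (265), Mogat2 (239), Fabp1 (97.95), Plin2 (94.2), Dgat2 (77.3), Pnpla2 (76.1), Cd36 (53.6) and Scarb1 (8.32). Counting intervals of neighbours overlapped for Dgat1 and Slc27a4, for Fabp1 and Plin2, and for Dgat2 and Pnpla2. In the fasted library the order was Fabp2 (30137), Fabp1 (712), Dgat1 (518), Slc27a4 (346), Pnpla2 (280.3), Mogat2 (276), Dgat2 (169.9), Cd36 (163), Plin2 (69.4) and Scarb1 (14.7). There the intervals of Pnpla2 and Mogat2 overlapped, as did those of Dgat2 and Cd36. Fabp1 went from the fifth to the second place and Plin2 from the sixth to the ninth, while Fabp2 was first and Scarb1 last in both. Among 10954 measured genes with a coding length, Fabp2 ranked 5 in the fed library and 2 in the fasted one, and Fabp1 ranked 1125 and 165. Levels used the longest annotated coding sequence, and with the median over a gene's coding transcripts those of Plin2 (204 and 150.2) and Dgat2 (120 and 264) were over 1.5 times as high. The order then changed too: in the fed library Plin2 was at place 5 and Fabp1 at place 8, with Dgat2 and Pnpla2 between them, and in the fasted library Pnpla2 stood above Slc27a4, while Fabp1 was at place 2 and Plin2 at place 9 there.

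Other genes of the same pathway were read from lists chosen by function, also with earlier results of these data known. Of 64 listed genes, 61 were in the files and 45 measured, of which 22 were called higher, 4 lower and 19 neither (15 higher and 8 lower with plain CPM), and their median log2 ratio was 0.51 (0.19 with plain CPM). Of the others in the files 3 had no read and 13 fewer than 30 counts. Over all measured genes, 17.3% were called higher and 17.3% lower, or 8.86% and 31.2% with plain CPM. Each list count below is to be read beside these shares. Among 10 measured genes of uptake, activation and binding, 6 were called higher and 0 lower (5 and 0 with plain CPM; median 0.81). Slc27a2, a very-long-chain acyl-CoA synthetase and relative of Slc27a4, had 250 and 1118 counts (2.51, 2.32 to 2.72). Acsl1, a long-chain acyl-CoA synthetase, had 374 and 974 counts (1.74, 1.56 to 1.91), and Slc27a1, another relative of Slc27a4, had 85 and 249 (1.90, 1.55 to 2.28). Acsl5, the most abundant acyl-CoA synthetase in the list and named after its value was seen, had 6636 and 13162 counts (1.34, 1.30 to 1.39). These enzymes all make acyl-CoA, the form in which fatty acids enter the acyltransferase steps.

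The list of other acylglycerol synthesis genes was mixed. Of 13 measured genes 6 were called higher and 2 lower, against 3 higher and 5 lower with plain CPM. The median was 0.35 (0.022 with plain CPM). The phosphatidate phosphatases Lpin3 (251 and 642 counts; 1.71, 1.498 to 1.93) and Lpin2 (317 and 603; 1.28, 1.08 to 1.48), which make diacylglycerol, were called higher under both scalings. Gk, glycerol kinase, had 2856 and 4123 counts (0.89, 0.82 to 0.95) and missed 1.5-fold with plain CPM (0.56). Agpat5, an acyltransferase of phosphatidate synthesis, was called lower at 202 and 83 counts (-0.92, -1.31 to -0.55), and so was Tmem68 at 72 and 35 (-0.67, -1.31 to -0.083). The glycerol phosphate acyltransferase Gpat3, listed as Agpat9 and named after its value was seen, had 1091 and 705 counts (-0.27, -0.41 to -0.14; called lower with plain CPM at -0.60). Of the other acyltransferases of the glycerol phosphate route, also named after their values were seen, Agpat1 and Agpat3 were called higher (0.61 and 1.09; Agpat1 missed 1.5-fold with plain CPM at 0.29). Gpam, Gpat4, Agpat2 and Agpat4 were not called (0.35, 0.22, -0.53 and -0.52), the last pair being called lower with plain CPM. The sign of Gpat4 turned with plain CPM (-0.10).

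Of 14 measured genes of other lipid droplet proteins, 8 were called higher and 2 lower (6 and 2 with plain CPM; median 0.73). Cidec, which promotes droplet fusion, had 249 and 636 counts (1.71, 1.49 to 1.93). The droplet-bound dehydrogenases Hsd17b13 (60 and 174; 1.88, 1.46 to 2.34) and Hsd17b11 (2446 and 5243; 1.46, 1.39 to 1.53) were also called higher. Plin1, the perilipin of fat cells, was called lower at 75 and 7 counts (-2.98, -4.43 to -1.95). Adipoq and Retn, which like Plin1 are adipocyte products, were called lower too. Of the other measured adipocyte markers, Cfd was not called (0.38, 0.15 to 0.61) and Cidec was called higher. The part of adipocytes in the Plin1 value was not tested. Ldah, a droplet-associated hydrolase, was called lower at 280 and 141 counts (-0.63, -0.94 to -0.34). Plin3, a perilipin of many tissues named after its value was seen, had 2202 and 2456 counts and was not called (0.51, 0.43 to 0.60).

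Among 8 measured genes of other lipolysis, 2 were called higher and 0 lower (1 and 1 with plain CPM). The list's median of 0.18 turned to -0.15 with plain CPM. Abhd6, a monoacylglycerol lipase, had 354 and 673 counts (1.28, 1.09 to 1.47). Lipe, hormone-sensitive lipase, had 678 and 827 counts (0.64, 0.49 to 0.79) and missed 1.5-fold with plain CPM (0.32). Named after their values were seen are the partners of Pnpla2 and the lipase that ends the pathway. Abhd5, the activator of Pnpla2, had 114 and 75 counts and was not called (-0.25, -0.69 to 0.18). G0s2, its inhibitor, was below the minimum with 15 and 5 counts. Mgll, the main monoacylglycerol lipase of most tissues, had 197 and 144 counts and was not called (-0.095, -0.42 to 0.22).

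**Figure D4:**
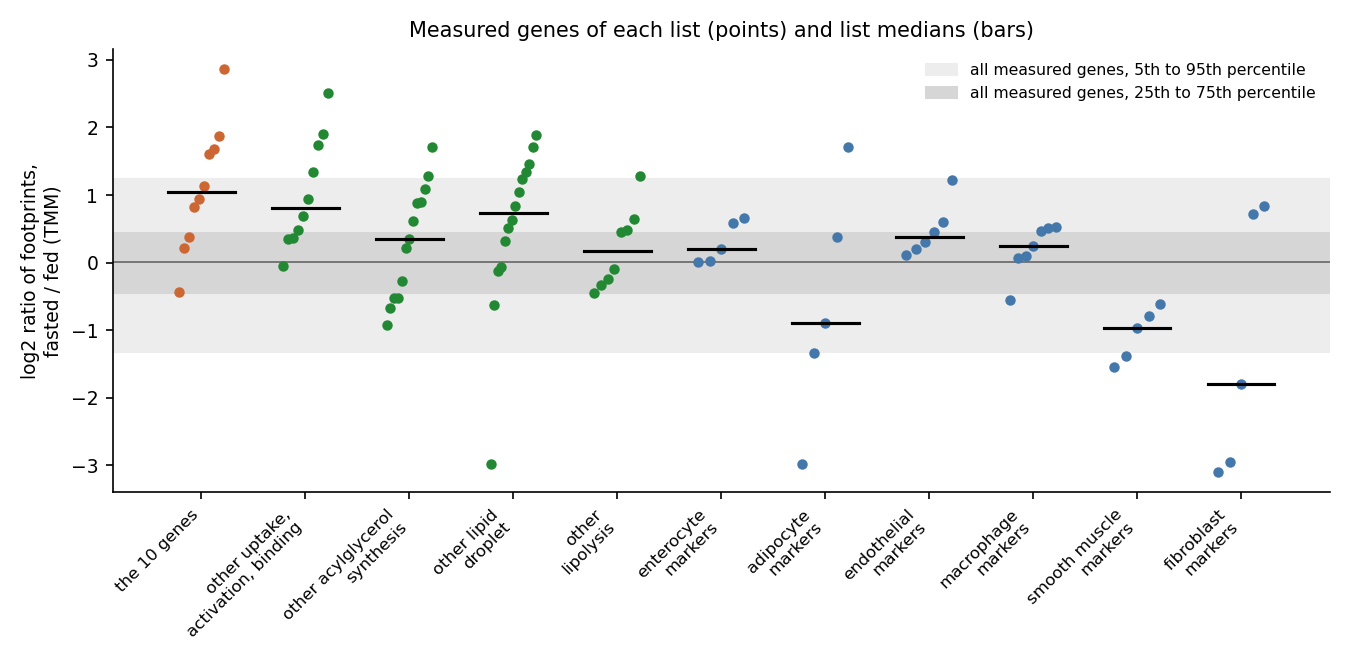
Fasted/fed log2 ratio (TMM) of each measured gene in the 10-gene set, in 4 lists of other pathway genes and in 6 lists of cell type markers; each point is 1 gene, black bars are list medians, and gray bands span the 25th to 75th and the 5th to 95th percentile of all measured genes. The 10 genes have a median of 1.04, and the lowest list median is that of the fibroblast markers at -1.80.

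Markers of some cell types in the tissue also differed between the libraries. Marker counts here and above are to be read beside the shares of all measured genes. These were 17.3% called higher and 17.3% lower, or 8.86% and 31.2% with plain CPM. Of 5 enterocyte markers 1 was called higher, Vil1, and 0 lower (0 in either direction with plain CPM). Their summed level was 21959 scaled CPM when fed and 26208 when fasted, and their median log2 ratio of 0.20 turned to -0.13 with plain CPM. Of 5 smooth muscle markers 5 were called lower under either scaling, with summed levels of 3851 and 2212. Of 5 fibroblast markers 3 collagen genes were called lower and 2 higher (3 lower and 0 higher with plain CPM), with summed levels of 4250 and 1628. In footprints of whole tissue, fewer cells of a type, less mRNA per cell and a lower ribosome load cannot be told apart. The part of tissue makeup in the values of the 10 genes was not tested. The tissue label was checked against 5 markers of the distal small intestine, all present in both libraries. Of these 3 were called higher and 0 lower (2 higher and 1 lower with plain CPM), at a median of 0.72: Fgf15 (1.46), Slc51b (0.92) and Slc51a (0.72, not called with plain CPM). Their summed level, to which Fabp6 gave the most, was 6564 and 6607 scaled CPM, and Slc10a2, the ileal bile acid transporter, had 2458 and 2390 counts. Of 5 markers of the proximal small intestine, Pdx1 and Onecut2 had 1 count each in the fed library and 0 in the fasted library. Gata4 was called higher at 140 and 191 counts (0.80, 0.48 to 1.13; 0.48 and not called with plain CPM), and Slc40a1 lower under both scalings at 238 and 101 (-0.88, -1.23 to -0.54). The list summed to 65.5 and 66.3 scaled CPM. The part of position along the intestine in the values of the 10 genes was not tested.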

How the data were processed

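Footprints were read from ileum of 1 fed and 1 fasted library. The deposited values are raw counts per gene, made by the authors with cutadapt, Bowtie 1.1.2, STAR and HTSeq on mm10, which the submitters' processing notes name without saying what each did. The labels state no annotation, strand setting or length filter. Entries given as NA were read as 0 counts. Rows for unassigned reads stayed out of library sizes. They held reads with no feature (13.4% fed, 21.0% fasted), several alignments (41.4%, 39.9%) and ambiguous reads (0.209%, 0.196%). Symbols were matched to GENCODE vM21 (GRCm38) for positions and coding lengths (96.5% of rows).

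Libraries were scaled with TMM in edgeR 4.0.16 (R 4.3.3), used for scaling only. Intervals on ratios are exact (Clopper-Pearson on the split of counts), those on levels are exact Poisson, and none covers differences between animals; reads were PCR amplified without identifiers. Log2 ratios have 0.5 counts added to each count, folds none. A count of 0 allows up to 3 counts, or 0.483 scaled CPM when fed and 0.617 when fasted. No test between conditions was possible. The counting functions were tested on simulated data. Named genes are the 10 members, up to 3 called in each direction per list by the interval bound nearest to no difference, and a few markers; others are said to be named after their values were seen. Members and lists were chosen with earlier results of these data known. Alternatives were plain CPM, DESeq2 1.42.0 size factors, upper-quartile factors, TMM without abundant genes and members, other count, fold and interval limits, 2 counts added, means, and median coding lengths. Another enterocyte marker of the list is not reported here.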

Additional observations from a re-analysis of the deposited data

How the results depend on the processing

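No paired analysis was possible because each group has 1 library and no replicate could be left out. Plain CPM changed the most: log2 ratios became 1.28 for Cd36, 2.54 for Fabp1, 1.35 for Fabp2, -0.11 for Mogat2, 0.62 for Dgat1, 0.81 for Dgat2, -0.76 for Plin2, 1.56 for Pnpla2 and 0.061 for Slc27a4. It left 6 of the 10 genes called higher and 1 lower, with Scarb1 no longer called (0.49). Among other acylglycerol synthesis genes plain CPM gave 3 higher and 5 lower, and among other lipolysis genes 1 higher and 1 lower. With a 2-fold threshold 5 of the 10 genes were called higher. The synthesis list then had 3 higher and 0 lower, the droplet list 1 lower and the lipolysis list 1 higher. With 99% intervals the synthesis list had 1 lower, and the change of the Dgat1 to Dgat2 ratio (0.872) no longer excluded 1. With at least 200 counts 6 of the 10 genes were called higher. The synthesis list then had 1 lower and the droplet list 5 higher and 1 lower. With no minimum count the uptake list had 1 lower. The causes were not tested. Median-ratio and upper-quartile factors, TMM without abundant genes and members, and 2 counts added left each of the 10 log2 ratios within its counting interval.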
